A study of Mus musculus with 10 samples.

Results

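The proteasome genes of the macrophage-like mouse line RAW264.7 are described here over 5 groups of arrays. They comprise every gene whose name on the array begins with Psma, Psmb, Psmc, Psmd, Psme, Psmf or Psmg followed by a digit. This gave 48 genes with 60 probes, out of 36315 gene names and 55681 probes on the array. Of the 48 genes, 47 were measured, among 18051 measured genes in all. The gene left out was Psmb11, the thymus-specific catalytic subunit, whose probe was not well above background on every array of any group.

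Cells of 4 groups received a glucocorticoid at 100 nM, followed after 1 hour by LPS (lipopolysaccharide, which comes from the outer coat of bacteria and stimulates macrophages) at 1 µg/ml for 16 hours. These were Dex (dexamethasone) and FF (fluticasone furoate), both synthetic drugs prescribed against inflammation, and VSG22 and VSGC12, which are known here by their code names alone. The fifth group, EtoH, is taken as the solvent control. The labels do not state whether it was given LPS, and this limit holds for every comparison with it. Each group had 2 arrays. The labels do not say that these came from separate cultures, so p-values measure only the spread between the samples, which may be technical.

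The 26S proteasome degrades proteins tagged with ubiquitin. Its 20S core is a barrel of outer alpha rings and inner beta rings, which hold the catalytic subunits, and its 19S cap has ATPases that unfold the substrate and non-ATPase subunits that recognise and deubiquitinate it. Interferon induces the catalytic subunits Psmb8, Psmb9 and Psmb10, which replace Psmb5, Psmb6 and Psmb7 to form the immunoproteasome, and the activator subunits Psme1 and Psme2 (PA28 alpha and beta), and together these shape the peptides that class I molecules present to T cells.

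Values are log2 processed signals relative to the array's own 75th percentile. That percentile lay between a signal of 315 and 428 over the 10 arrays, and 40.1% to 44.4% of spots were well above background. Of 10 macrophage markers, 9 were well above background on every array, as against 0 of 4 B cell and 0 of 4 epithelial markers. The summed macrophage list was at 9.03 on both EtoH arrays and 9.29 to 9.44 with glucocorticoid, where Csf1r rose by 1.18, Itgam by 1.29 and Lyz2 by 0.94, Ptprc fell by 0.68 and Adgre1 by 0.24, Mrc1 was lower and not well above background on any treated array, and the other 4 were not called. In the T cell list 2 of 5 markers passed on every array, Cd3e and Cd4, and the summed list ranged from 4.65 to 4.72 in EtoH and from 5.25 to 6.82 with glucocorticoid. That gap lay in Cd4 (4.59 and 4.67 in EtoH, 5.22 to 6.80 on the treated arrays), while Cd3e overlapped (0.08 and -0.21, against -0.41 to 0.17). Of 5 fibroblast markers 1, Lum, passed on every array. The part of these markers in the results was not tested. In RNA from whole cultures, fewer cells of a type and less RNA per cell cannot be told apart.

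Across the mean of the 4 glucocorticoids, the proteasome genes moved little. Of 47 members tested, 18 (38.3%) were called, 12 upward and 6 downward (limma, Benjamini-Hochberg adjusted p under 0.05). Over all 18028 genes tested, 44.2% were called, 21.6% upward and 22.5% downward, so that the share of members called was near the background. The sizes were small: 43 of 47 members (91.5%) stayed within 0.5 on the log2 scale, as did 68.0% of all genes. Members also varied less within a group, with a median SD of 0.061 against 0.098 for all genes. The part of this in the sizes was not tested. Psmg2 alone among the members moved by more than 1 (2.13% of members, against 10.1% of all genes). The median change of the members was 0.06 and that of all genes -0.004. All 8 glucocorticoid arrays lay above both EtoH arrays for 13 members (22.9% of all genes did) and below both for 7 (24.7% of all genes), and the groups overlapped for 27. Without EtoH replicate 1 the members called fell to 7 (26.4% of all genes), and without EtoH replicate 2 to 8 (25.9%). Subtracting the array median in place of the 75th percentile moved the median of all genes to 0.12. It left 2 members called (4.26%, against 20.9% of all genes), Psma6 and Psmg2, both higher. For the mean of the 4, the members' share lay below that of all genes in the main processing and in every alternative. The difference in shares was not tested. Among the members called, 8 were higher and 7 lower with a percentile over probes detected on all arrays (45.4% of all genes called), 9 and 7 with quantile normalization (45.3%) and 12 and 3 with normexp background correction (41.9%). The first of these lost the calls of Psmb2, Psmb5, Psmc5 and Psme2, as did quantile normalization, and normexp lost those of Psmb5, Psmb6, Psme1, Psme2 and Psme3. With no filter on detection 5 members were called (10.4%, against 13.6% of all genes).

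**Figure D1:**
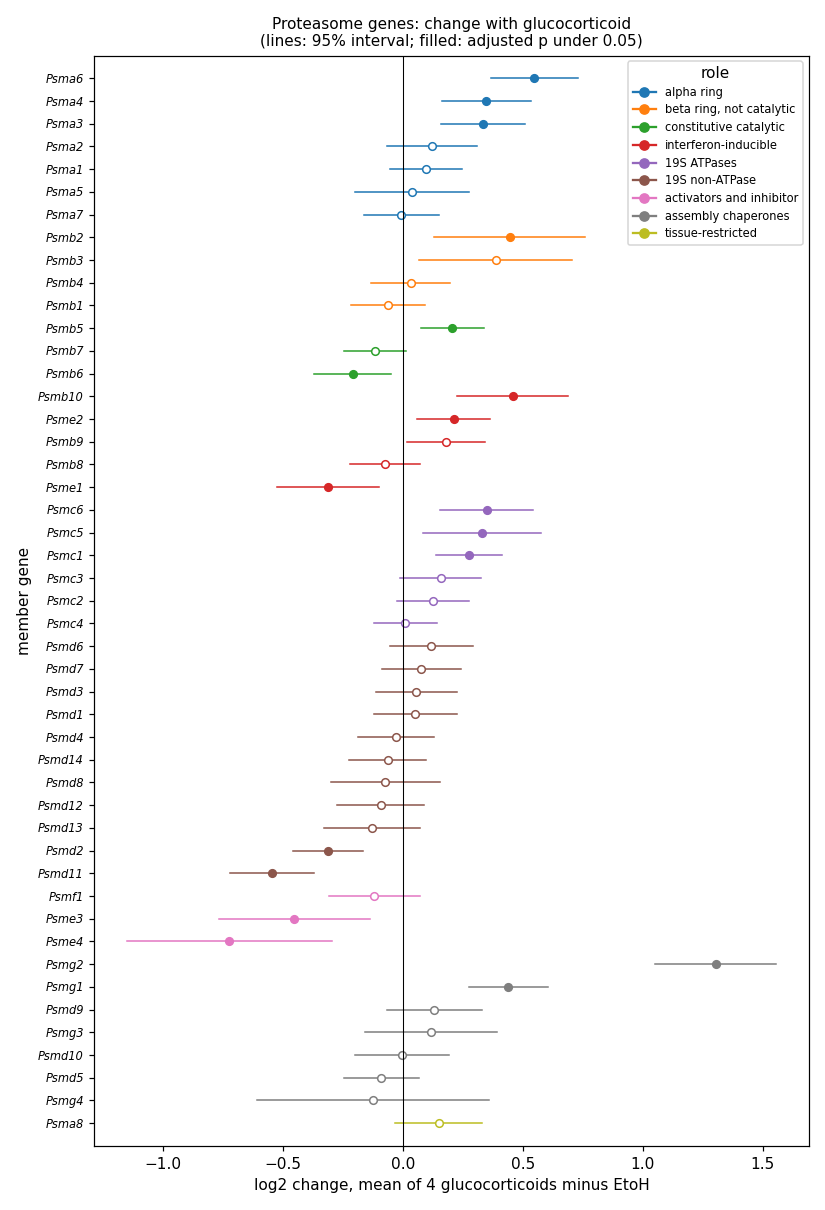
Log2 change of the 47 measured proteasome genes, mean of 4 glucocorticoids minus EtoH (x axis), with genes ordered by role on the y axis. Points are the fitted change, lines its 95% interval, filled points an adjusted p under 0.05 (limma); most members lie within 0.5 of 0, and Psmg2 stands at 1.30.

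The alpha ring, which gates entry to the core, had 3 members that rose and 0 that fell of 7 (42.9% called, against 44.2% of all genes). Psma6 was at 7.03 and 7.0 on the EtoH arrays. It stood at 7.45 and 7.62 with Dex, 7.72 and 7.60 with FF, 7.48 and 7.32 with VSG22, and 7.67 and 7.64 with VSGC12. All 8 treated arrays were above both controls, the lowest by more than the spread in EtoH. The rise of Psma6 was 1.46-fold, or 0.55 ± 0.08 on the log2 scale (SE, n = 8 and 2 arrays in limma, adjusted p = 0.0016). Its probe (mm9, chromosome 12, 56511127 to 56511186) lies within a patch of the EtoH group, a place where neighbouring spots were bright in that group only. Psma3 rose by 0.33 ± 0.07 (adjusted p = 0.011), from 6.97 and 6.99 in EtoH to between 7.17 and 7.42. Psma4 rose by 0.35 ± 0.08 (adjusted p = 0.011), and its other probe was at -0.14 (adjusted p = 0.22). Without either EtoH array the calls of Psma3 (0.32 and 0.34 without replicate 1 and 2) and Psma4 (0.36 and 0.34) were lost. Psma1, Psma2, Psma5 and Psma7 lay between -0.01 and 0.12 and were not called. Psma8, a testis form of Psma7, was well above background on all 10 arrays, at 0.15 (adjusted p = 0.16).

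Among the beta subunits without catalytic activity, 1 of 4 rose. Psmb2 was at 3.28 and 3.71 in EtoH, the widest pair of controls among the members, and between 3.78 and 4.31 on the treated arrays. Its change of 0.44 ± 0.13 (adjusted p = 0.033) was 0.69 within slide 1 and 0.20 within slide 2. The call was lost without EtoH replicate 1 (0.23), either VSG22 array (0.45 and 0.44), either VSGC12 array (0.44 and 0.45) or Dex replicate 2 (0.43). Psmb3 was at 0.39 ± 0.13 (adjusted p = 0.054), with all treated arrays above both controls. Psmb1 and Psmb4 were at -0.06 and 0.03.

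The constitutive catalytic subunits moved by at most 0.21, in both directions. Psmb5, the chymotrypsin-like subunit, was at 8.59 and 8.56 in EtoH. It reached 8.69 and 8.67 with Dex, 8.87 and 8.85 with FF, 8.80 and 8.75 with VSG22, and 8.77 and 8.85 with VSGC12. Every treated array was above both controls, and Psmb5 rose by 0.21 ± 0.06 (adjusted p = 0.022). Psmb6, the caspase-like subunit, was at 8.63 and 8.52 in EtoH and at 8.29 and 8.45 with Dex, 8.46 and 8.41 with FF, 8.24 and 8.17 with VSG22, and 8.45 and 8.45 with VSGC12. All treated arrays were below both controls, and Psmb6 fell by 0.21 ± 0.07 (adjusted p = 0.042). Psmb7, the trypsin-like subunit, was at 4.98 and 5.02 in EtoH. It was at 4.86 and 4.89 with Dex, 4.93 and 4.86 with FF, 4.87 and 4.84 with VSG22, and 4.93 and 4.89 with VSGC12. The groups did not overlap, and the change of -0.12 ± 0.05 was not called (adjusted p = 0.12; called with the percentile over detected probes and with quantile normalization, both -0.19). The call of Psmb5 was lost without EtoH replicate 1 (0.22) or 2 (0.19) or VSG22 replicate 1 (0.20), and a second Psmb5 probe was at -0.04. That of Psmb6 was lost with the slide as a block (adjusted p = 0.052) and without any 1 of the EtoH (-0.16 and -0.26), VSG22 (-0.22 and -0.20), VSGC12 (both -0.21) or FF (-0.21 and -0.20) arrays.

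The interferon-inducible subset split: of 5 members, 2 rose, 1 fell and 2 were not called (60.0% called, against 44.2% of all genes). This difference in shares was not tested. The Psmb8 and Psmb9 probes lie 18.5 kb apart on chromosome 17 (mm9) with the peptide transporter gene Tap1 between them, 6.86 kb from Psmb8. The probes of Psme1 and Psme2 lie 6.04 kb apart on chromosome 14. Psmb8 replaces Psmb5 in the core. The probe for Psmb8 (chromosome 17, 34337771 to 34337830) was compared with the second Psmb5 probe (chromosome 14, 55233161 to 55233220). That probe is not the one behind the main Psmb5 values. Over the best ungapped overlap of 50 bases, 31 (62.0%) were equal, and these are in capitals. The best overlaps were 38.9% for Psmb9 with Psmb6 and 41.1% for Psmb10 with Psmb7. Each is the best of many offsets between probes. No probe was compared with the other transcript, so how far the array tells the exchanged subunits apart was not tested.
Psmb8: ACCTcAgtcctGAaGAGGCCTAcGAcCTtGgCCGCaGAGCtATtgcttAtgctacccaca
Psmb5: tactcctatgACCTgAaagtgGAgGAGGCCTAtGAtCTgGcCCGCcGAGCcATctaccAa

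Psmb8 was at 3.98 and 3.91 in EtoH, 3.93 and 3.79 with Dex, 3.77 and 3.80 with FF, 4.01 and 3.97 with VSG22, and 3.82 and 3.84 with VSGC12. The groups overlapped, and the change was -0.08 ± 0.06 (95% interval -0.22 to 0.07, adjusted p = 0.35). Psmb9 was at 3.27 and 3.12 in EtoH, 3.45 and 3.41 with Dex, 3.33 and 3.23 with FF, 3.52 and 3.43 with VSG22, and 3.36 and 3.27 with VSGC12. It overlapped EtoH through FF, and its change of 0.18 ± 0.07 was not called (adjusted p = 0.074; adjusted p = 0.036 with the slide as a block). Psmb10 (chromosome 8, 108459677 to 108459736) was at 5.95 and 5.75 in EtoH. The treated arrays stood at 6.26 and 6.29 with Dex, 6.46 and 6.20 with FF, 6.31 and 6.19 with VSG22, and 6.45 and 6.28 with VSGC12. No array overlapped with EtoH, and Psmb10 rose 1.37-fold (log2 0.46 ± 0.10, adjusted p = 0.0094). It was called with each compound, at 0.42 with Dex, 0.48 with FF, 0.40 with VSG22 and 0.52 with VSGC12 (adjusted p = 0.040, 0.022, 0.0496 and 0.018). The call of the mean was lost without EtoH replicate 2 (0.36). The 3 exchanged catalytic pairs thus gave 0.21 for Psmb5 beside -0.08 for Psmb8, -0.21 for Psmb6 beside 0.18 for Psmb9, and -0.12 for Psmb7 beside 0.46 for Psmb10. The difference within a pair was not tested.

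**Figure D2:**
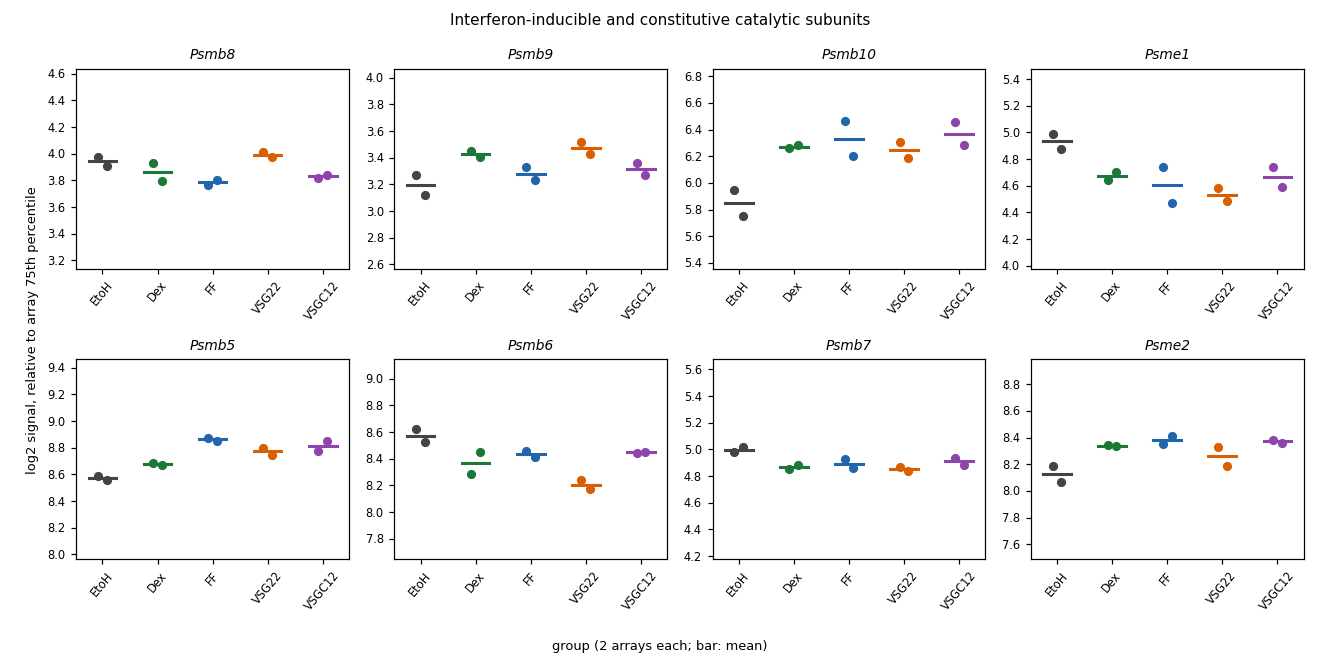
Log2 signal relative to the array 75th percentile (y axis, 1.5 units in each panel) for 5 interferon-inducible and 3 constitutive catalytic subunits by group (x axis, 2 arrays each; bar, mean). Psmb10 and Psme1 separate from EtoH in opposite directions, while Psmb8 overlaps with it.

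Psme1, the alpha subunit of PA28, was at 4.99 and 4.88 in EtoH. It was at 4.64 and 4.71 with Dex, 4.74 and 4.47 with FF, 4.58 and 4.49 with VSG22, and 4.74 and 4.59 with VSGC12, each below both controls. Psme1 fell by 0.31 ± 0.09 (adjusted p = 0.029), and by 0.31 and 0.32 within the 2 slides. Its probe is printed in 10 spots per array, whose SD on a single array was 0.03 to 0.10. At least 1 of these spots lies within a patch of the Dex group, and at least 1 within a patch of the VSG22 group. The call was lost without EtoH replicate 1 (-0.26) or 2 (-0.37) or VSG22 replicate 2 (-0.30).

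Psme2, the beta subunit, rested on the choice of probe. By the probe with the highest signal it was at 8.19 and 8.07 in EtoH, 8.34 and 8.34 with Dex, 8.35 and 8.41 with FF, 8.33 and 8.19 with VSG22, and 8.38 and 8.36 with VSGC12. All 8 treated arrays were above both controls, VSG22 replicate 2 by the least, and Psme2 rose by 0.21 ± 0.06 (adjusted p = 0.036). Among the single compounds it was called with FF alone, and this probe lies within a patch of the FF group. Its means were 8.13 in EtoH, 8.34 with Dex, 8.38 with FF, 8.26 with VSG22 and 8.37 with VSGC12. No difference between compounds was called for it. A second probe, A_55_P2025611, was at 0.01 (adjusted p = 0.88), with 5.55 and 5.50 in EtoH and 5.44 to 5.64 elsewhere. The third, A_55_P2025612, fell by 0.73 ± 0.10 (adjusted p = 0.0016), from -1.27 and -1.35 in EtoH to between -2.38 and -1.70. Its position in the file spans 219297 bases of chromosome 14 (56209736 to 56429032), against 459 for the second probe (56208888 to 56209346). It carries an Ensembl transcript in place of the RefSeq transcript of the other probes, so that it may report another transcript. Their letters, given because these probes disagree, are as follows.
A_55_P2025611: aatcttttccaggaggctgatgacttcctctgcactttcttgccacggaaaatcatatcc
A_55_P2025612: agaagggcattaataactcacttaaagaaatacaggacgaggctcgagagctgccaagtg

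Mouse has a near-identical copy, Psme2b, which no probe name on the array gives, so the signal of Psme2 is uncertain. The mean of the 3 probes was -0.17 (adjusted p = 0.075), the reverse of the call. The call was lost in 16 of 21 alternatives, among them leaving out EtoH replicate 1 (0.27) or 2 (0.15), VSG22 replicate 1 (0.19), either VSGC12 array (both 0.21), either FF array (0.22 and 0.20) or Dex replicate 2 (0.21).

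**Figure D3:**
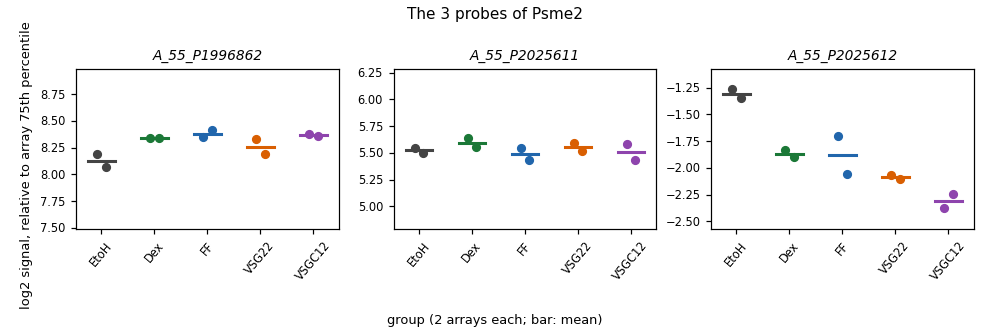
Log2 signal relative to the array 75th percentile (y axis) of the 3 Psme2 probes by group (x axis, 2 arrays each; bar, mean). The first probe is higher, the second near level and the third lower on the treated arrays than on the EtoH arrays.

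Of the 6 ATPases of the 19S cap, 3 rose and 0 fell. Psmc1 rose by 0.28 ± 0.06 (adjusted p = 0.0087), from 7.89 and 7.81 in EtoH to between 8.01 and 8.27, and both of its probes were called. Psmc6 rose by 0.35 ± 0.08 (adjusted p = 0.014), from 2.81 and 3.03 to between 3.06 and 3.36. Psmc5 rose by 0.33 ± 0.10 (adjusted p = 0.038), with 5.43 and 5.74 in EtoH and 5.77 to 6.08 on the treated arrays. For all 3, every treated array was above both controls. Within slides Psmc5 was at 0.52 and 0.14 and Psmc6 at 0.47 and 0.22. The calls were lost without EtoH replicate 1 for Psmc6 (0.23) and Psmc5 (0.18) and without EtoH replicate 2 for Psmc1 (0.20 to 0.40 over the alternatives). That of Psmc5 was also lost without either VSG22 array (both 0.33), VSGC12 replicate 1 (0.30), FF replicate 1 (0.31), Dex replicate 2 (0.32) or both Dex arrays (0.30), and with the slide as a block (adjusted p = 0.053). Psmc2, Psmc3 and Psmc4 were at 0.12, 0.16 and 0.01.

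The 11 non-ATPase subunits of the cap gave 0 that rose and 2 that fell (18.2% called, against 44.2% of all genes). Psmd11, a scaffold subunit of the lid whose abundance is known to limit 26S assembly, was at 5.41 and 5.40 in EtoH. It was at 4.90 and 4.79 with Dex, 4.89 and 4.79 with FF, 4.93 and 4.77 with VSG22, and 4.96 and 4.83 with VSGC12. The treated arrays spanned 4.77 to 4.96, well apart from the controls, and Psmd11 fell by 0.55 ± 0.07 (1.46-fold lower, adjusted p = 0.0014). It was called with each compound, between -0.57 and -0.51. Its probe (chromosome 11, 80283406 to 80283920) lies in a patch of the EtoH group, the group where it was high. Psmd2, a large scaffold subunit of the base, fell by 0.31 ± 0.06 (adjusted p = 0.0069), from 6.24 and 6.19 to between 5.73 and 6.02. Its call was lost without EtoH replicate 1 (-0.29). The other 9, among them the ubiquitin receptor Psmd4 and the deubiquitinase Psmd14, lay between -0.13 and 0.12.

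Of the alternative activators Psme3 and Psme4 and the inhibitor Psmf1, 2 fell and 0 rose (66.7% called, against 44.2% of all genes). Psme4, or PA200, a nuclear activator of the core, was at 0.89 and 1.06 in EtoH, 0.44 and -0.25 with Dex, 0.16 and 0.10 with FF, 0.71 and 0.40 with VSG22, and 0.32 and 0.14 with VSGC12. Each treated array was below both controls, with a wide spread between the Dex arrays, and Psme4 fell by 0.72 ± 0.18 (1.65-fold lower, adjusted p = 0.017). A second probe fell by 0.52 ± 0.14 (adjusted p = 0.022). Within slides the change was -0.48 and -0.97, and without EtoH replicate 1 (-0.81) or 2 (-0.64) the call was lost. Psmf1, the inhibitor PI31, was at -0.12 ± 0.08 (adjusted p = 0.26), with 1.39 and 1.49 in EtoH and 1.07 to 1.55 elsewhere.

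Psme3, or PA28 gamma, a nuclear activator, had the widest range of means over the 4 compounds among the members, although the F-test over the compounds did not call it (adjusted p = 0.18). It was at 6.43 and 6.80 in EtoH, 6.67 and 7.03 with Dex, 6.07 and 5.96 with FF, 5.77 and 5.73 with VSG22, and 6.14 and 5.92 with VSGC12. The Dex arrays lay within or above the range of the controls, and the other 6 treated arrays lay below both controls. The fall of 0.45 ± 0.13 for the mean of the 4 (adjusted p = 0.031) therefore rested on FF (-0.60, adjusted p = 0.031), VSG22 (-0.86, adjusted p = 0.0091) and VSGC12 (-0.59, adjusted p = 0.034), beside 0.24 with Dex (adjusted p = 0.30). Within slides it was -0.27 and -0.64. The call of the mean was lost without EtoH replicate 2 (-0.27), either VSG22 array (-0.46 and -0.45), VSGC12 replicate 2 (-0.42) or FF replicate 2 (-0.44). The 1 probe for Psme3 (chromosome 11, 101184289 to 101184348) holds a run of 13 alternating T and G bases, and 0.19% of the array's 55681 probes hold a run at least as long. The part of this repeat in its signal was not tested. It is shown in capitals within the 30 bases round it.
Psme3: cgtgcacaTGTGTGTGTGTGTtcgtgtgtg

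The assembly chaperones held the largest increase. Psmg2 and Psmg1 (PAC2 and PAC1) form a pair that guides the alpha ring together. Psmg2 was at 1.81 and 1.66 in EtoH, 2.94 and 3.22 with Dex, 3.08 and 3.18 with FF, 2.88 and 2.60 with VSG22, and 3.23 and 3.18 with VSGC12. The lowest treated array, VSG22 replicate 2, was still well above both controls, and Psmg2 rose 2.47-fold (log2 1.30 ± 0.11, adjusted p = 0.00018). It was called with each compound, at 1.34, 1.40, 1.00 and 1.47 for Dex, FF, VSG22 and VSGC12, and in all 21 alternatives (1.23 to 1.43). Psmg1 was at 6.20 and 6.08 in EtoH, 6.54 and 6.52 with Dex, 6.50 and 6.66 with FF, 6.68 and 6.59 with VSG22, and 6.57 and 6.56 with VSGC12. The groups did not overlap, and Psmg1 rose 1.36-fold (log2 0.44 ± 0.07, adjusted p = 0.0027), with both of its probes called. The pair that works beside them, Psmg3 and Psmg4, was at 0.12 ± 0.12 and -0.13 ± 0.20 (adjusted p = 0.44 and 0.64). Of the 19S chaperones Psmd5, Psmd9 and Psmd10, which assemble the ATPase ring, 0 were called (44.2% of all genes were). A second Psmd9 probe rose by 0.50 (adjusted p = 0.0022) beside 0.13 for the one used, and a second Psmd10 probe by 0.31 (adjusted p = 0.035) beside -0.004. Of 11 members with more than 1 probe well above background, the probes of 5 took both signs (Psmd12, Psmd10, Psme2, Psma4 and Psmb5), and those of 1, Psme2, were called in opposite directions.

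**Figure D4:**
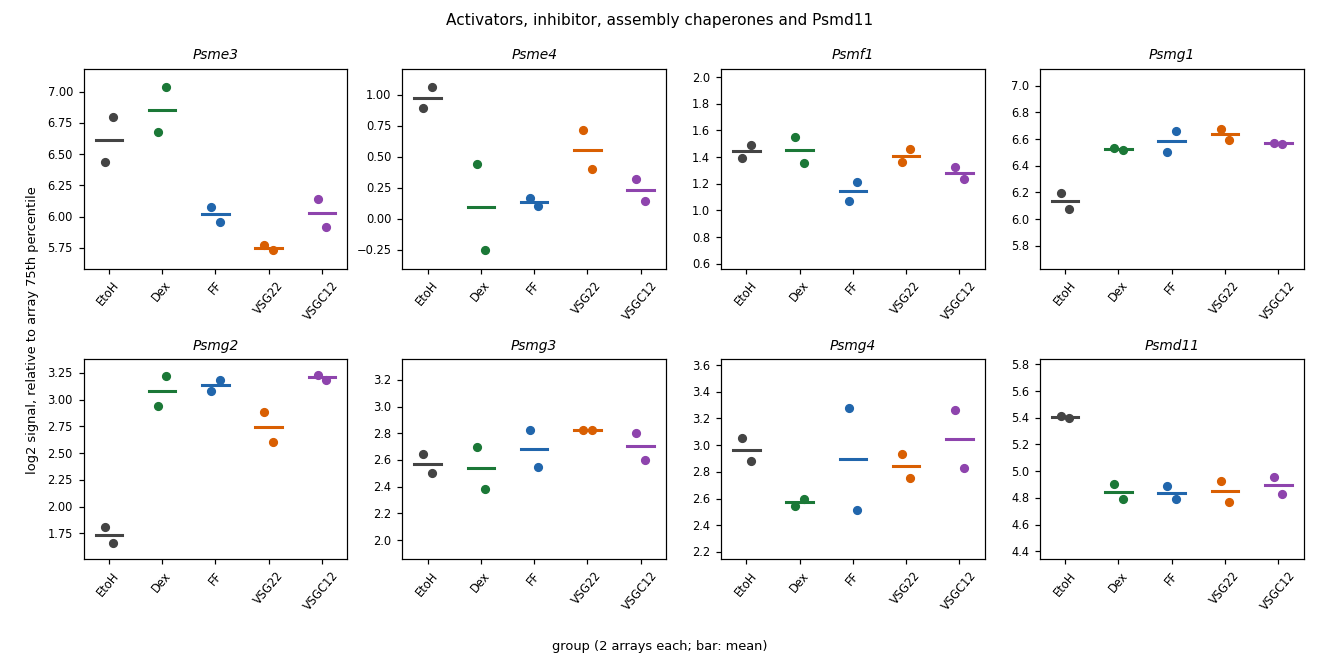
Log2 signal relative to the array 75th percentile (y axis) of the activators Psme3 and Psme4, the inhibitor Psmf1, the assembly chaperones Psmg1 to Psmg4 and the lid subunit Psmd11 by group (x axis, 2 arrays each; bar, mean). Psmg2, Psmg1 and Psmd11 separate from EtoH with every compound, and Psme3 does so with FF, VSG22 and VSGC12.

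Each compound was also set against EtoH on its own. The 4 comparisons share the EtoH arrays, so their counts are set side by side only. With Dex, 8 of 47 members were called (17.0%, against 32.2% of all genes), 5 upward (16.5% of all genes) and 3 downward (15.7%). With FF it was 16 (34.0%, against 37.1% of all genes), 12 upward (17.9% of all genes) and 4 downward (19.2%). With VSG22 it was 11 (23.4%, against 30.6% of all genes), 7 upward (16.1% of all genes) and 4 downward (14.5%). With VSGC12 it was 14 (29.8%, against 35.5% of all genes), 10 upward (17.2% of all genes) and 4 downward (18.3%). The members' medians were 0.03, 0.06, 0.07 and 0.08. Psma6, Psmb10, Psmg1 and Psmg2 rose and Psmd11 fell in all 4 comparisons. Psma8 was called with VSGC12 alone (0.36, adjusted p = 0.027), at -0.03, 0.18 and 0.08 with Dex, FF and VSG22. Psmb6 and Psme1 were called with VSG22 alone (-0.37 and -0.40), but with the other 3 compounds they were at -0.21 to -0.12 and at -0.32 to -0.26, and no difference between compounds was called for them. The counts moved with single arrays, as did the share of all genes called. Without EtoH replicate 1 they were 5 for Dex (16.6% of all genes), 7 for FF (23.2%), 4 for VSG22 (18.8%) and 6 for VSGC12 (22.2%). Without EtoH replicate 2 they were 5 (17.99%), 7 (21.7%), 5 (18.7%) and 5 (21.3%) in that order. Dex gave 4 members without Dex replicate 2 (20.5%). FF gave 6 without FF replicate 1 (24.2%) and 8 without FF replicate 2 (24.99%). VSG22 gave 3 and 4 without its replicate 1 and 2 (16.1% and 17.99%), and VSGC12 gave 6 and 7 (24.6% and 22.8%).

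**Figure D5:**
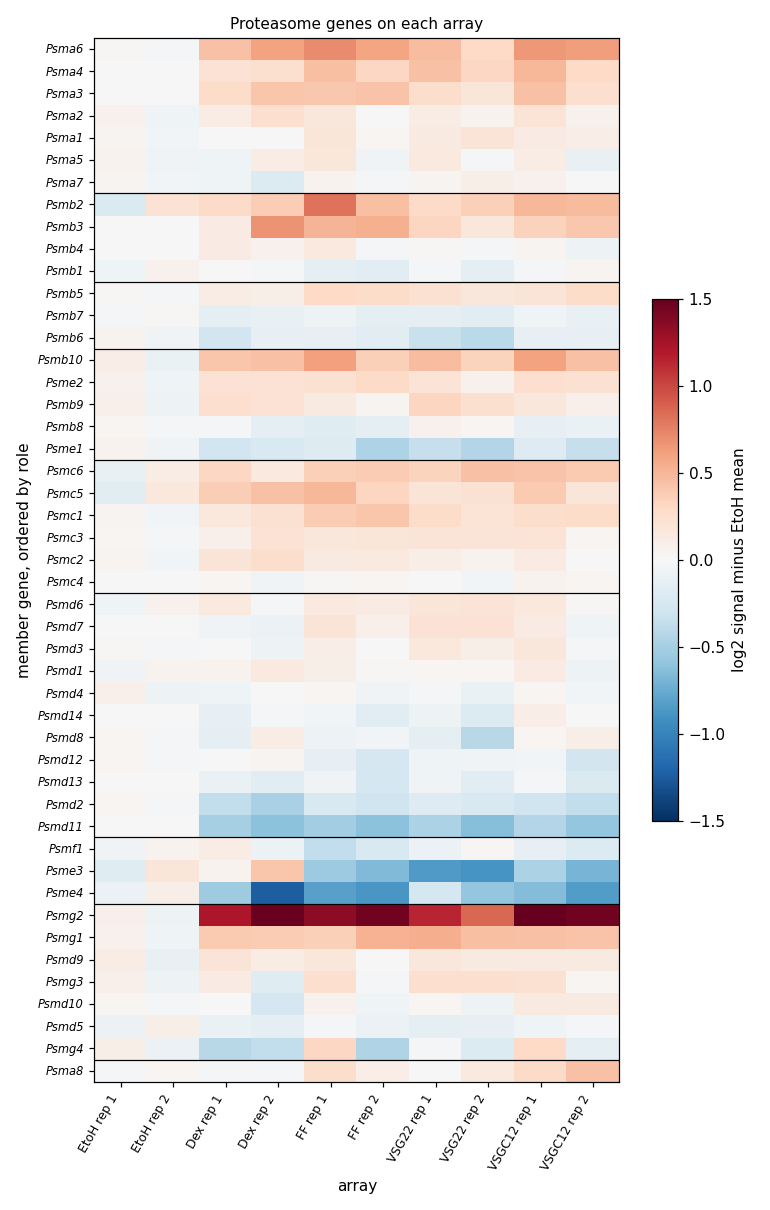
Log2 signal minus the EtoH mean (color) for the 47 measured members (y axis, ordered by role) on each of the 10 arrays (x axis). The row of Psmg2 is red on all 8 glucocorticoid arrays, and that of Psme3 is blue on the FF, VSG22 and VSGC12 arrays and not on the Dex arrays.

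The compounds were compared with one another at the same dose and time, in 6 pairs. FF carries a furoate ester that Dex lacks. At an adjusted p under 0.05 in limma, 0 of 47 members were called in any pair. The background was 0.366% of all genes for FF against Dex, 0.549% for VSG22 against Dex, 0.394% for VSGC12 against Dex, 0% for VSG22 against FF, 0.00555% for VSGC12 against FF and 0% for VSGC12 against VSG22. At an unadjusted p under 0.05 the members numbered 4, 5, 3, 5, 0 and 5 in that order, where 14.4%, 16.7%, 14.8%, 9.47%, 4.21% and 7.15% of all genes passed. The F-test over the 4 compounds also called 0 members (0.255% of all genes), and 3 had an unadjusted p under 0.05 (13.5% of all genes).

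The widest gap in each pair with Dex was that of Psme3. It was 1.10 lower with VSG22 than with Dex (-1.10 ± 0.17, SE, 95% interval -1.50 to -0.70, adjusted p = 0.055, and 0.12 adjusted over the 6 pairs together). The difference was -0.84 for FF against Dex (-1.24 to -0.44, adjusted p = 0.14, and 0.22 over the 6 pairs) and -0.82 for VSGC12 against Dex (-1.22 to -0.43, adjusted p = 0.14, and 0.22 over the 6 pairs). Both arrays of VSG22, FF and VSGC12 lay below both Dex arrays. The difference between VSG22 and Dex was called in 4 of 21 alternatives, with quantile normalization (-1.01), the percentile over detected probes (-1.07) and an intensity trend in the variance (-1.10, chosen after seeing the data), and without Dex replicate 1 (-1.28). Without that array VSGC12 against Dex was also called for Psme3 (-1.0), and VSG22 against Dex for Psme4 (0.81).

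FF and VSGC12 differed least. All members lay between -0.15 and 0.18, and for 43 of 47 the 95% interval of the difference stayed within 0.5. VSG22 and VSGC12 differed most for Psmg2, which was 0.47 higher with VSGC12 (0.15 to 0.79, adjusted p = 0.68, and 0.32 over the 6 pairs). The difference in the other direction was widest for Psme4, at -0.32. For 39 of 47 members the interval lay within 0.5, and for 47 within 1. These intervals do not show that the compounds act alike.

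Genes that work with the proteasome were counted from lists outside the name rule. Of 11 measured proteasome-associated genes (13 listed), 3 rose and 1 fell (36.4%, against 44.2% of all genes), with a median of -0.04. Pomp, the maturation factor that completes the core with Psmg1 and Psmg2, was at 6.14 and 6.10 in EtoH and between 6.63 and 6.84 on the treated arrays. It rose by 0.63 ± 0.07 (adjusted p = 0.00082) and was called in all 21 alternatives. The proteasome-bound deubiquitinase Usp14 rose by 0.35 and the ubiquitin ligase Ube3c by 0.39, and Akirin2, which takes proteasomes into the nucleus, fell by 0.33. Nfe2l1, the transcription factor that drives proteasome genes when proteasomes are inhibited, was at -0.19 for the mean of the 4 (adjusted p = 0.13). It was called with FF alone (-0.40). Its group means were 1.29 in EtoH, 1.34 with Dex, 0.89 with FF, 1.10 with VSG22 and 1.07 with VSGC12. No difference between FF and Dex was called in this list. Of 15 ubiquitin and shuttling genes (17 listed), 3 rose and 2 fell (33.3%), with a median of -0.12. The ubiquitin-activating enzyme gene Uba1 rose by 0.40 and the segregase gene Vcp by 0.32, while its cofactor gene Faf1 fell by 0.67. The Vcp cofactor gene Nploc4 fell by 0.22, a call that held in 8 of 21 alternatives. With the array median subtracted, the call of Pomp alone was kept in these 2 lists, and those of Usp14, Ube3c, Akirin2, Uba1, Vcp and Nploc4 were lost with no filter on detection too. That of Nploc4 was also lost with the slide as a block. Ube3c was also not called with the percentile over detected probes or quantile normalization, nor Vcp with quantile normalization or normexp. Leaving out probes in patches lost the call of Uba1 (0.23). Calls lost without EtoH replicate 1 were those of Usp14 (0.34), Ube3c (0.31), Akirin2 (-0.30), Uba1 (0.32) and Vcp (0.27), and without EtoH replicate 2 those of Ube3c (0.47), Akirin2 (-0.37), Uba1 (0.49) and Vcp (0.36). The call of Akirin2 was also lost without VSG22 replicate 2 (-0.33), and that of Ube3c without either VSG22 (0.39 and 0.38), FF (0.37 and 0.40) or Dex array (0.37 and 0.41).

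The class I peptide pathway and its interferon regulators, which share inducers with the immunoproteasome, gave 3 that rose and 6 that fell of 16 measured (17 listed; 56.2%, against 44.2% of all genes), with a median of -0.13. With the array median subtracted 1 of the 16, Erap1, was called. Stat2 (-0.73), Nlrc5 (-0.59), Irf8 (-0.54) and Irf1 (-0.47), all transcriptional regulators, fell, and the peptidase gene Erap1 rose by 0.88. Tap1, which lies between Psmb8 and Psmb9, was at -0.42 for the mean of the 4 (adjusted p = 0.027). It fell with FF (-0.66) and VSGC12 (-0.59), and was not called with VSG22 (-0.35, adjusted p = 0.13) or Dex (-0.10, adjusted p = 0.64), whose arrays overlapped EtoH. The Tap1 probe lies within a patch of the Dex group and another of the FF group, and their part in these values was not tested. The call of the mean was lost without either EtoH array or VSG22 replicate 1, with the array median and with no filter (-0.53 to -0.30 over the alternatives). Psmb8 and Psmb9 were at -0.08 and 0.18. The call of Irf8 was lost without EtoH replicate 1 (-0.48).

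Promoters were read from RefSeq on GRCm38.p6, as the 300 bases from 250 before to 50 after a start. Of the members, 40 had an entry, with 43 promoters. The search took both strands and 3 motifs, namely GAAANNGAA (core of the interferon-stimulated response element), TTCNNNGAA (gamma-activated site) and TGACNNNGC (core of the antioxidant response element). No match in a member overlapped with one of another motif. The first was in 7 of 43 member promoters (16.3%) and in 8.56% of 32851 promoters of all genes, the second in 3 (6.98%, against 8.30%) and the third in 6 (14.0%, against 12.4%). Among 6 promoters of the inducible subset, Psme1 held the first motif, beginning 10 bases after the start, Psmb8 held the second, beginning 97 bases before it, and 0 held the third. The first was held by Psmb3, Psmb4, Psmc2, Psmd4, Psmd9, Psme1 and Psmg4, of which Psme1 fell and the others were not called. The third was held by Psmb5, Psmb6, Psmc6, Psmd9, Psmd12 and Psme4. Of these Psmb5 and Psmc6 rose, Psmb6 and Psme4 fell and Psmd9 and Psmd12 were not called. The 30 bases round 5 of these matches are shown, those of the inducible subset and those of Psmb5, Psmb6 and Psme4, with the match in capitals on the gene's strand.
Psme1 (chr14:55578494-55578523, +): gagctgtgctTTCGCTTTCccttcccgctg
Psmb8 (chr17:34198088-34198117, +): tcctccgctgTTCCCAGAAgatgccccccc
Psmb5 (chr14:54618023-54618052, -): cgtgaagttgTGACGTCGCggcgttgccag
Psmb6 (chr11:70525338-70525367, +): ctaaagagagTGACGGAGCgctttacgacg
Psme4 (chr11:30771758-30771787, +): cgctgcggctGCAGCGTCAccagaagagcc
A match is a description of these letters and not of binding.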

How the data were processed

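RNA from 10 samples was measured on single-channel mouse arrays. Per the file headers, the deposited files hold Agilent Feature Extraction 10.7.3.1 output in the unit intensity: a processed signal, background-subtracted by the authors' software and not scaled between arrays, beside other columns, deposited by the authors as quality flags. The submitters' processing notes name limma. Probe positions are those of the files, on mm9.

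Spots with an outlier flag were dropped, log2 signals were averaged over the spots of each probe, and each array's 75th percentile was subtracted. A gene was represented by its brightest probe, chosen from probes that passed the software's background flag throughout 1 group or more. The 60 member probes were named by their gene name on the array. Of these, 59 also matched a RefSeq gene by accession and 1 by symbol. All 10 arrays were fitted together with group as the only term by lmFit and eBayes of limma 3.58.1 in R 4.3.3 (5 residual and 1.81 prior degrees of freedom). P-values were two-sided and adjusted over all genes by Benjamini and Hochberg, at a threshold of 0.05. The fit was also run on simulated data with independent noise and few genes changed. That setting differs from these data, where many genes were called, so no support is drawn from it. The slide was taken to coincide with the replicate number, which stood for it in the fit. Deviations correlated over 0.1 in 5 of 10 pairs of groups (-0.04 to 0.32). As not every pair passed, the numbers were not taken as pairs in the main fit. The slide may still be a shared batch. It was fitted as a block by replicate number in an alternative, given where it changed a call. Within-slide values are also by replicate number. A patch is a place where at least 3 of 24 surrounding spots were well above background in 1 group only. Patches were found by group and not by array, and a probe counted if any of its spots lay in one. The number of arrays limits the precision.

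Members and lists were chosen with earlier results of these data known. Every member is counted by role. Named with values are the inducible and constitutive catalytic subunits, Psme3, Psme4, Psmf1, the Psmg genes, the 6 highest and 6 lowest other called members, members with the smallest p between compounds, members whose probes disagree, and up to 5 called genes per list outside the name rule. Psma8, Psmb3, Tap1, Nfe2l1 and the other members given by a value were added after their values were seen. The protein comparison that had been planned was not run. Alternatives are given at the end.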

Additional observations from a re-analysis of the deposited data

How the results depend on the processing

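With the array median subtracted, the members called against EtoH numbered 2 for the mean of the 4, 1 for Dex, 1 for FF, 1 for VSG22 and 2 for VSGC12 (20.9%, 11.3%, 13.8%, 9.91% and 13.1% of all genes), and with no filter on detection 5, 2, 3, 3 and 2 (13.6%, 6.52%, 9.13%, 7.47% and 8.55%). With only the 2 groups in the fit, Dex gave 2 (11.5%), FF 8 (33.2%) and VSGC12 7 (29.7%), and with normexp Dex gave 13 (33.7%). Leaving out 1 array gave 7 to 19 for the mean of the 4, 4 to 8 for Dex, 6 to 16 for FF, 3 to 10 for VSG22, 5 to 15 for VSGC12, 0 to 2 for VSG22 against Dex and 0 to 1 for VSGC12 against Dex. A lone array of a group was assumed to vary like the other groups. VSG22 against Dex gave 1 member with the percentile over detected probes, 1 with quantile normalization and 1 with an intensity trend, which was chosen after seeing the data. With a replicate block (slide), 17 members were called for the mean of the 4, 16 of them among the 18, and Psme3 remained uncalled between compounds. The cause of these changes was not tested. Fits with fewer arrays also have fewer degrees of freedom. Psme2 reversed, to -0.17, with the mean of its probes. Of the 18 calls, those of Psma6 and Psmg2 held in every alternative that tested them. The share of upward calls is tied to the scale: 66.7% of member calls (49.0% of all calls) in the main processing, 100% (70.3%) with the array median, 53.3% (39.3%) with the percentile over detected probes, 56.2% (43.8%) with quantile normalization and 80.0% (47.6%) with normexp. Over the named genes, 609 values kept their side of the threshold, 156 lost the call, 3 gained it and 1 that was called reversed. A change of sign in a gene called on neither side was counted among the 609. Psme4, Psma8 and the third Psme2 probe were among the dimmest member probes, though well above background on all 10 arrays. The part of low signal in their values was not tested.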
